A study of Rattus norvegicus with 18 samples.

Results

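The genes described here are 10 cortical neuropeptide and interneuron marker genes: *Sst*, *Npy*, *Vip*, *Cck*, *Pvalb*, *Crh*, *Penk*, *Pdyn*, *Tac3* and *Cort*. They were found in the tables by gene symbol. Of the 10, 9 had a row among the 30735 genes of the deposited tables, and all 9 were among the 18444 genes with enough counts to be tested. *Cort*, the gene of cortistatin, had no row under its symbol and was not analysed here. The libraries came from cerebral cortex of 18 adult Sprague Dawley rats, 1 library per rat, in 3 groups of 6. Subarachnoid hemorrhage (SAH), bleeding into the space around the brain, was produced by pushing a filament through an artery at the base of the skull. The SAH 1d and SAH 7d groups were sampled 1 and 7 days later. The sham group had the same neck surgery without perforation, and its day of sampling is not given in the labels. The study's methods name the whole cortex of the operated side, whereas the sample labels name cortex of both sides. Total counts per library ranged from 27270026 to 38271014.

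Neuropeptides are made as larger precursor proteins that enzymes cut in the secretory pathway, and they are released from vesicles onto G protein-coupled receptors. In cortex, somatostatin (*Sst*), neuropeptide Y (*Npy*), vasoactive intestinal peptide (*Vip*) and the calcium-binding protein parvalbumin (*Pvalb*) mark classes of inhibitory GABA neurons, while cholecystokinin (*Cck*) is made by a class of interneurons and also by many excitatory neurons. Corticotropin-releasing hormone (*Crh*) is made by scattered cortical interneurons, neurokinin B (*Tac3*) by some interneurons, and the opioid precursors proenkephalin (*Penk*) and prodynorphin (*Pdyn*) are far more abundant in the striatum, which lies directly under the cortex. Several of these genes are known targets of the transcription factor CREB, which binds the cAMP response element. The libraries are bulk tissue, so fewer cells of a type and less RNA per cell cannot be told apart.

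Promoter windows were taken from RefSeq (build GRCr8, not the build of the deposited tables), which had an entry for 6 of the 10 genes: *Sst*, *Npy*, *Vip*, *Pvalb*, *Pdyn* and *Cort*. Each window spans 250 bases before and 50 bases after the annotated start. It was searched on both strands for the full cAMP response element TGACGTCA, for its shorter form TGACG, which the full element contains, and for the TATA motif TATAAA. Over 33469 windows of the same 300 bases, 1.83% held TGACGTCA, 21.2% held TGACG and 14.2% held TATAAA. The stretches below are shown because *Sst* was the only gene of the 6 whose window held the full element, *Vip* held the short form, *Npy* held none of the 3 motifs, and *Pdyn* was the gene called changed in the counts. The short form was also in the windows of *Pvalb* and *Cort*, 241 and 105 bases before the start, and these are not shown. Capitals mark the full element in *Sst*, the short form in *Vip* and the TATA motif in *Pdyn*. A match is a description of letters, not of a bound site. *Sst* is chr11:90461536-90461565, plus strand, with the element starting at base 3 counted from the annotated start, which need not be the start used in these rats. *Npy* (chr4:80211991-80212110, plus strand) and *Vip* (chr1:44470360-44470479, plus strand) show the 120 bases before the start. In *Vip* the short element begins 97 bases before the start and a TATAAA, left in lower case, 48 bases before it. *Pdyn* (chr3:137366504-137366623, minus strand) shows the same 120 bases, with TATAAA beginning 13 bases before the start.
Sst: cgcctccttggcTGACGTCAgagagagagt
Npy: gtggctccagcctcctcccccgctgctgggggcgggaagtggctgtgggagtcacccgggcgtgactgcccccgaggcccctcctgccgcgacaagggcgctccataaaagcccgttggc
Vip: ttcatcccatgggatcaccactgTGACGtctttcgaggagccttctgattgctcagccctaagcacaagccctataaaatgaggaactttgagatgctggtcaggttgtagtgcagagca
Pdyn: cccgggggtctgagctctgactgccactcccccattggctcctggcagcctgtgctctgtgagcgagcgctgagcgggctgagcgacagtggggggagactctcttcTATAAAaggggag

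On the deposited FPKM scale, which is per transcript length, the sham mean was highest for *Cck* at 244 ± 42.7 (SD, n = 6), followed by *Sst* at 157 ± 39.0. *Penk* had a mean FPKM of 128 ± 68.6 and *Pvalb* one of 79.2 ± 25.2. The middle of the order was *Vip* at 39.0 ± 12.0, *Npy* at 26.5 ± 8.05 and *Pdyn* at 22.6 ± 6.37. *Tac3*, at 11.1 ± 1.74, and *Crh*, at 4.90 ± 1.44, were the least abundant. Neighbours in this order overlapped between libraries, except that *Pdyn* lay above *Tac3* and *Tac3* above *Crh* in all sham libraries. The order by group mean was the same in SAH 1d except that *Npy*, at 43.2 ± 49.0, passed *Vip*. *Npy* was 143 FPKM in SAH 1d-3 and 14.8 to 26.3 FPKM in the others, and without that library its mean of 23.3 ± 4.79 was below that of *Vip*, 36.9 ± 8.09. The order was also the same in SAH 7d, except that *Pdyn* passed *Npy*. *Penk* varied most among sham libraries, with a coefficient of variation of 54.6% on the scale of counts per 1000000 (CPM, after TMM normalization), against 16.3% for *Tac3*. Excitatory neuron genes such as *Slc17a7* summed to between 2914 and 4154 CPM in sham, and GABA neuron genes summed to between 1308 and 1525 CPM. Striatal genes were present too: the dopamine receptor gene *Drd2* ranged from 6.14 CPM in sham-3 to 73.2 CPM in sham-1.

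SAH 7d-5 and SAH 1d-3 stood apart from their groups. SAH 7d-5 was the lowest of all 18 libraries for 7 of the 9 peptide and marker genes. In it, pan-neuron genes summed to 2526 CPM, against 7067 to 9312 in the other SAH 7d libraries, while its meningeal fibroblast genes reached 3899 CPM against 175 to 323 and its microglia genes 1746 CPM against 205 to 682. SAH 1d-3 was the highest of all libraries for *Npy*, *Cck* and *Crh*, yet it was the lowest of the SAH 1d group for *Sst*, *Pvalb* and *Tac3*. Its excitatory neuron genes summed to 1028 CPM, against 2151 to 2686 in the other SAH 1d libraries. Neutrophil genes summed to 56.3 CPM in it, against 6.19 to 14.3, thalamic genes to 128 CPM against 59.8 to 68.6, and red cell genes to 189 CPM against 51.4 to 102. Of the thalamic sum in SAH 1d-3, *Prkcd* alone held 72.4 CPM. How far these marker differences account for the peptide levels was not tested.

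**Figure D1:**
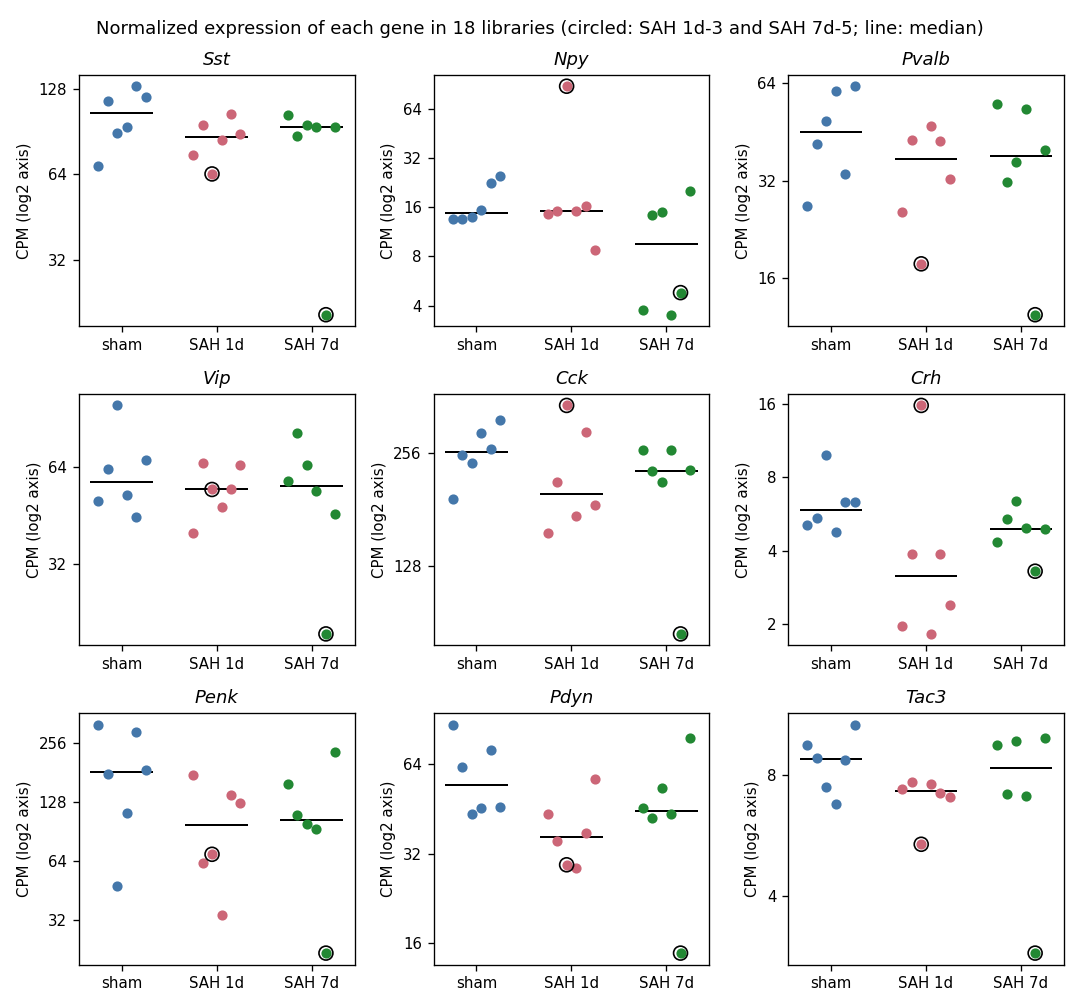
Normalized expression (CPM, log2 axis) of 9 genes in each of 18 libraries, grouped as sham, SAH 1d and SAH 7d, with a line at each group median and circles around SAH 7d-5 and SAH 1d-3. *Npy* and *Crh* are highest in SAH 1d-3, and SAH 7d-5 is the lowest library for 7 of the 9 genes.

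The first question was which peptide and marker genes differed 1 day after SAH. In SAH 1d versus sham, 1 of the 9 genes passed an adjusted p of 0.05 in edgeR's quasi-likelihood test with Benjamini-Hochberg adjustment over all tested genes, and it was *Pdyn*, which fell. Over all 18444 genes, 25.4% were called, 14.9% higher and 10.5% lower. Of the called genes 58.7% were higher, and this share was 79.2% with limma on log2(FPKM + 1). No gene of the 9 passed the added requirement of a 2-fold change, which 6.64% of all genes passed, 1.06% as lower. Limma on log2(FPKM + 1) called none of the 9, where it called 5.47% of all genes lower. Of the 9 fitted values 8 lay below 0, with a median log2 fold change of -0.30 against 0.0086 over all genes. The SAH 1d and SAH 7d comparisons with sham share the same 6 sham libraries.

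Among the markers of interneuron classes, *Sst* (ENSRNOG00000001837) was measured at 68.8 to 130.6 CPM in sham, with a median of 104.8. Its SAH 1d values ran from 64.3 CPM in SAH 1d-3 to 104.0 CPM in SAH 1d-5, with a median of 86.9. The groups overlapped broadly, and 5 of 6 SAH 1d libraries lay below the sham mean. The log2 fold change of *Sst* was -0.27 (SE 0.15, 95% interval -0.60 to 0.061, edgeR adjusted p = 0.212). *Pvalb* (ENSRNOG00000006471), the calcium buffer of fast-spiking basket and chandelier cells, ranged from 26.7 to 62.7 CPM in sham and from 17.7 to 47.4 CPM in SAH 1d. Its medians were 45.3 and 37.4 CPM, and its lowest sham library, sham-1, was below 4 of the 6 SAH 1d libraries. The log2 fold change of *Pvalb* was -0.40 (SE 0.25, interval -0.94 to 0.15, edgeR adjusted p = 0.264). *Vip* (ENSRNOG00000018808), the peptide of interneurons that mainly inhibit other interneurons, gave medians of 57.9 CPM in sham and 54.7 CPM in SAH 1d. The sham range, 45.0 to 99.8 CPM, contained 5 of the 6 SAH 1d values. Its log2 fold change was -0.20 (SE 0.18, interval -0.60 to 0.19, edgeR adjusted p = 0.439).

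*Cck* (ENSRNOG00000019321), a peptide of both interneurons and pyramidal cells, ranged from 193 to 314 CPM in sham with a median of 258. In SAH 1d, 3 libraries lay below all sham libraries, at 157, 174 and 186 CPM, while SAH 1d-3 lay above them at 343 CPM. The fitted log2 fold change of *Cck* was -0.18 (SE 0.19, interval -0.59 to 0.22, edgeR adjusted p = 0.50). It was -0.34 without SAH 1d-3 (edgeR adjusted p = 0.12), and limma voom with sample weights called it lower (-0.45, adjusted p = 0.022). Voom called 16.4% of all genes lower and 18.9% higher. It gives less weight to samples that stand apart, so its call is not separate support. *Cck* was called in 1 of the 22 alternative fits.

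*Npy* (ENSRNOG00000009768), which marks Sst and neurogliaform interneurons and is a known activity-regulated peptide, ran from 13.5 to 24.7 CPM in sham, with a median of 14.7. In SAH 1d, SAH 1d-3 held 87.9 CPM, and the other libraries held 8.77 to 16.3 CPM. A single library therefore lay above every sham library, and SAH 1d-6 lay below them all. The log2 fold change of *Npy* was 0.61 with SAH 1d-3 (SE 0.49, interval -0.44 to 1.67, edgeR adjusted p = 0.38) and -0.31 without it (interval -0.74 to 0.13, adjusted p = 0.28). *Crh* (ENSRNOG00000012703), the stress peptide, showed the same split more sharply. It was 4.79, 5.10, 5.43, 6.31, 6.35 and 9.89 CPM in sham. In SAH 1d it was 1.83, 1.96, 2.40, 3.88 and 3.89 CPM in 5 libraries and 15.7 CPM in SAH 1d-3. The 5 libraries lay below all sham libraries, and SAH 1d-3 lay above all of them. With all libraries the log2 fold change of *Crh* was -0.34 (SE 0.48, interval -1.37 to 0.70, edgeR adjusted p = 0.64). Without SAH 1d-3 it was -1.18 (SE 0.25, interval -1.72 to -0.63) with an edgeR adjusted p of 0.00414. In that fit 13% of all genes were called lower and 15.4% higher. SAH 1d-3 stood apart partly by its own *Crh* value, so this call depends on a choice made from the same values. *Crh* was called in 1 of the 12 fits that each left out 1 library. Limma voom with all libraries called *Crh* lower (-1.19, adjusted p = 0.0027), where it called 16.4% of all genes lower and 18.9% higher. Voom gives less weight to samples that stand apart, so its call is not separate support.

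**Figure D2:**
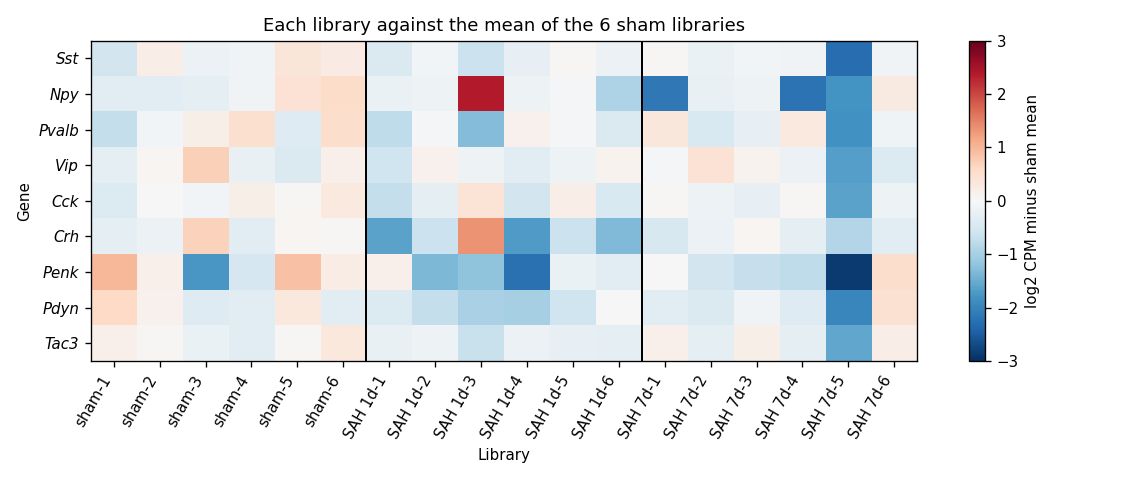
Deviation of each library (columns) from the mean of the 6 sham libraries in log2 CPM, for 9 genes (rows), with blue below and red above the sham mean. SAH 1d-3 is red for *Npy* and *Crh*, the other SAH 1d libraries are blue for *Crh*, and SAH 7d-5 is blue in all rows.

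The opioid precursors had the largest fitted decreases with all libraries in edgeR, although *Crh* was lower still without SAH 1d-3 and by voom. *Pdyn* (ENSRNOG00000026036), the precursor of dynorphins, which act on the kappa opioid receptor, was measured at 43.6 CPM in sham-3, 45.6 in sham-4, 45.9 in sham-6, 62.6 in sham-2, 71.4 in sham-5 and 86.9 in sham-1. In SAH 1d it was 28.7, 29.4, 35.2, 37.6, 43.4 and 57.1 CPM. Of the 6 SAH 1d libraries 5 lay below every sham library, and only SAH 1d-6 lay within the sham range. *Pdyn* fell by 0.62 on the log2 scale (SE 0.21, interval -1.06 to -0.18, edgeR adjusted p = 0.042), a fold of 0.651. The call was close to the threshold. It was lost without sham-1, sham-2, sham-5, SAH 1d-1, SAH 1d-2, SAH 1d-3, SAH 1d-4 or SAH 1d-5, with edgeR adjusted p between 0.016 and 0.088 over the 12 fits that each left out 1 library. *Penk* (ENSRNOG00000008943), the precursor of enkephalins, had a wider spread. Its sham libraries ran from 47.8 CPM in sham-3 to 318 CPM in sham-1, with a median of 182. The SAH 1d libraries ran from 33.7 to 177 CPM, with a median of 98.0, and all 6 lay below the sham mean. The log2 fold change of *Penk* was -0.90 (SE 0.45, interval -1.86 to 0.067, edgeR adjusted p = 0.16). *Tac3* (ENSRNOG00000004229), the neurokinin B precursor, was 6.76 to 10.7 CPM in sham and 5.38 to 7.68 CPM in SAH 1d. All 6 SAH 1d libraries were below the sham mean, and 1 was below every sham library. Its log2 fold change was -0.30 (SE 0.13, interval -0.58 to -0.012, edgeR adjusted p = 0.12).

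**Figure D3:**
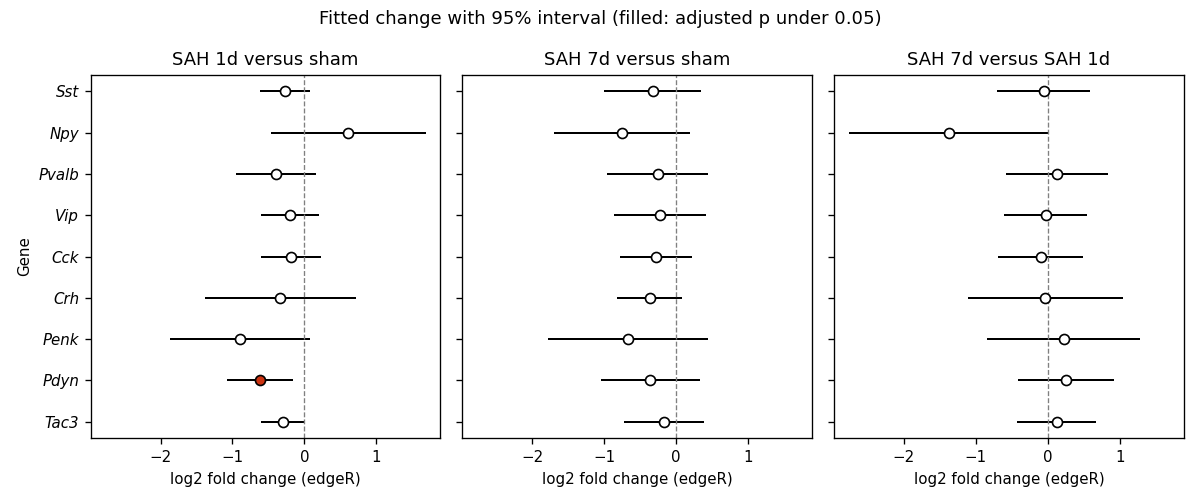
Fitted log2 fold change from edgeR (x axis) with its 95% interval for 9 genes (y axis) in 3 comparisons, filled where the adjusted p is under 0.05. *Pdyn* in SAH 1d versus sham, at -0.62, is the only filled point.

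Both opioid precursors followed striatal genes across libraries. *Penk* had a Pearson correlation of 0.95 with the mean log2 CPM of 10 striatal genes over 18 libraries, and of 0.97, 0.88 and 0.98 within the 6 sham, 6 SAH 1d and 6 SAH 7d libraries. For *Pdyn* the correlation was 0.85 over 18 libraries and 0.75, 0.80 and 0.91 within groups. The libraries differ in tissue makeup, so these values are a description. The other genes had weaker or group-dependent correlations with the striatal list, such as 0.57 for *Sst*, which was 0.11 over the 16 libraries other than the pair that stood apart. Of the 10 striatal genes 3 fell in SAH 1d versus sham, with a median log2 fold change of -1.24. Among them were the phosphodiesterase *Pde10a* at -1.24 and the adenosine receptor *Adora2a* at -1.48 (edgeR adjusted p = 0.0272 and 0.0416). *Pde10a* lost its call without SAH 1d-4, sham-1 or sham-5 (highest adjusted p = 0.0562), and *Adora2a* kept it in 3 of 12 fits that left out 1 library, those without SAH 1d-1, sham-3 or sham-4. The summed CPM of the list ranged from 391 to 1692 in sham, 169 to 759 in SAH 1d and 146 to 993 in SAH 7d. *Drd1* (-0.71, adjusted p = 0.27) and *Drd2* (-1.30, adjusted p = 0.086) were not called by edgeR. With the striatal mean as a covariate in the edgeR fit, the log2 fold change of *Pdyn* was -0.24 (interval -0.60 to 0.12, adjusted p = 0.38). That of *Penk* was 0.21 (interval -0.30 to 0.72, adjusted p = 0.61). The striatal mean itself tended to be lower in SAH 1d and was correlated with both genes. This fit therefore cannot tell striatal content from a change with SAH, and the cause was not tested.

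**Figure D4:**
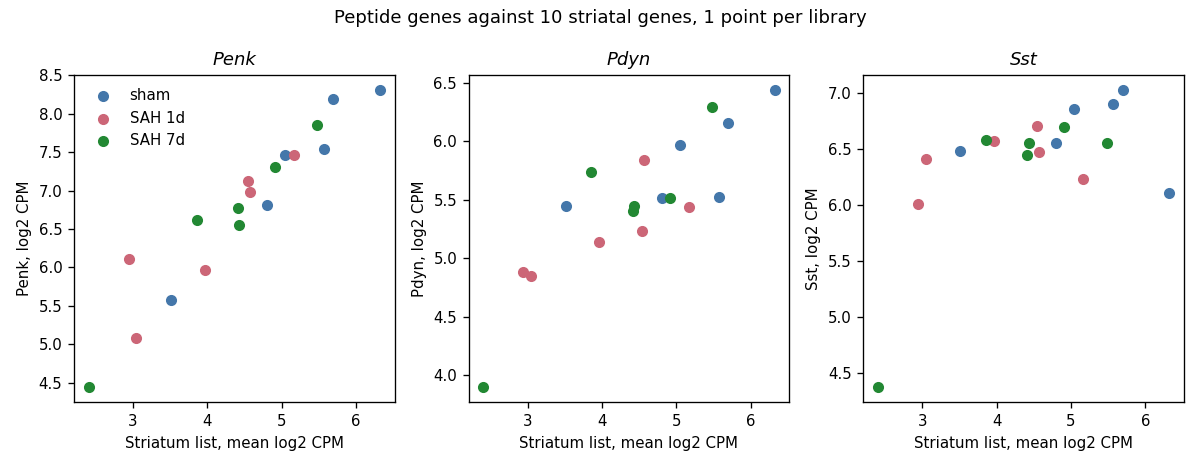
Log2 CPM of *Penk*, *Pdyn* and *Sst* (y axes) against the mean log2 CPM of 10 striatal genes (x axes), 1 point per library, coloured by group. *Penk* and *Pdyn* rise with the striatal mean in all 3 groups (Pearson 0.95 and 0.85 over 18 libraries), and *Sst* does so less (0.57).

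Genes that GABA neurons share moved in the same comparison. Of 9 tested GABA neuron genes 3 fell, among them *Gad1*, which encodes a GABA-synthesizing enzyme, by 0.33 on the log2 scale and the vesicular GABA transporter *Slc32a1* by 0.45 (edgeR adjusted p = 0.025 and 0.029). *Gad1* lost its call without SAH 1d-2, sham-5 or sham-6 (highest adjusted p = 0.0572) and *Slc32a1* without SAH 1d-4, sham-5 or sham-6 (highest adjusted p = 0.0659). *Gad2*, the gene of the other GABA-synthesizing enzyme, had a log2 fold change of -0.18 (edgeR adjusted p = 0.39). In this comparison 10.5% of all genes were called lower. With the striatal mean as a covariate, 0 of the 9 GABA neuron genes were called. Their median log2 fold change was then -0.18, against -0.33 without the covariate. That fit called 1829 of all genes and cannot tell striatal content from a change with SAH. *Gad1* was at 298 to 409 CPM in sham and 233 to 322 CPM in SAH 1d. Set against the mean log2 CPM of *Gad1*, *Gad2* and *Slc32a1* in the same library, *Sst*, *Vip*, *Cck*, *Pvalb* and *Tac3* shifted by 0.072, 0.16, 0.099, -0.078 and 0.039 between sham and SAH 1d. Without SAH 1d-3 these shifts were 0.18, 0.18, 0.00055, 0.13 and 0.15. The shift was -0.28 for *Pdyn*, -0.54 for *Penk*, -0.44 for *Crh* and 0.49 for *Npy*. Of the SAH 1d libraries, 4 lay below and 1 above all sham libraries for *Crh*, and 1 below and 1 above for *Npy*. Without SAH 1d-3 the shift was -0.83 for *Crh*, 0.071 for *Npy*, -0.18 for *Pdyn* and -0.44 for *Penk*. No gene of the 9 was outside the sham range in all SAH 1d libraries on this scale.

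Other genes used here as interneuron class markers were lower in part. In bulk tissue their RNA cannot be assigned to interneurons alone. Of 21 tested, 4 fell and none was called higher, with a median of -0.30. *Calb1*, the calcium buffer calbindin, fell by 0.95, the neurogliaform marker *Lamp5* by 1.17 and the potassium channel gene *Kcnc2* of fast-spiking cells by 0.74 (edgeR adjusted p = 0.000237, 0.0010 and 0.00241). All SAH 1d libraries lay below all sham libraries for *Calb1* and *Lamp5*: *Calb1* was 169 to 234 CPM in sham and 87.5 to 132 CPM in SAH 1d, and *Lamp5* 165 to 319 and 77.8 to 153 CPM. Over all genes, 5.41% were lower and 7.89% higher with no overlap in this way.

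Among 6 peptide processing enzymes and helpers 3 fell: the prohormone convertase *Pcsk2* by 0.76, its chaperone *Scg5* by 0.59 and carboxypeptidase E (*Cpe*) by 0.26 (edgeR adjusted p = 0.000648, 0.00132 and 0.0273). None of the 6 was called higher, and *Cpe* was no longer called without sham-3, SAH 1d-4 or SAH 1d-6 (highest adjusted p = 0.0642). Of 16 tested receptors and binding proteins for these peptides 3 fell, the somatostatin receptor *Sstr3* by 0.83 and the neuropeptide Y receptors *Npy5r* by 0.87 and *Npy1r* by 0.55 (edgeR adjusted p = 0.00165, 0.00313 and 0.0236). *Npy1r* lost its call without sham-3 or sham-6 (highest adjusted p = 0.056). *Oprk1*, the kappa receptor for dynorphins, was at -0.91 (adjusted p = 0.12) and *Crhbp*, the binding protein of CRH, at 0.36 (adjusted p = 0.66). Of 13 other neuropeptide precursors, *Cartpt* fell by 1.74 and chromogranin B (*Chgb*) by 0.37 (edgeR adjusted p = 0.0019 and 0.0128). *Trh*, the thyrotropin-releasing hormone gene, was called higher at 4.34 (adjusted p = 0.034), with 140 CPM in SAH 1d-3 and 1.25 to 2.97 CPM in the other SAH 1d libraries. Without SAH 1d-3 the log2 fold change of *Trh* was 0.68 (adjusted p = 0.451), no gene of that list was called higher and 4 were called lower.

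Neuronal genes beyond GABA neurons were also lower. All 8 pan-neuron genes fell, with a median of -0.59, and 5 of 7 excitatory neuron genes fell, with a median of -0.57 (examples are the excitatory neuron genes *Neurod6* at -1.13 and *Nrgn* at -1.07, edgeR adjusted p = 0.0012 and 0.00264). The 9 peptide and marker genes had a median of -0.30. Of 10 activity-dependent genes, 3 rose (*Npas4* 2.25, *Fos* 2.03 and *Fosb* 2.34, edgeR adjusted p = 0.00593, 0.0319 and 0.0393), and *Npas4* alone was called without SAH 1d-3 (2.32) or without SAH 1d-5 (1.46). The calls of *Fos* and *Fosb* were kept in 5 of 12 fits that left out 1 library. The 10 activity-dependent genes summed to 2875 CPM in SAH 1d-3, 2285 CPM in SAH 1d-5 and 521 CPM in SAH 1d-2. In SAH 1d-1, SAH 1d-4 and SAH 1d-6 the sum was 304 to 328 CPM, below the sham range of 459 to 767 CPM. *Fos* was 17.5 to 28.1 CPM outside SAH 1d-3 and SAH 1d-5 in this group, against 11.8 to 26.7 CPM in sham. Among other cell types, *Gfap* of astrocytes rose from 285 to 540 CPM in sham to 2244 to 3769 CPM while *Aldh1l1* fell by 0.85, *P2ry12* of microglia fell by 1.19, *Col3a1* of meningeal fibroblasts rose by 1.15, and the neutrophil gene *Csf3r* rose by 1.74. *P2ry12* lost its call without sham-3 (edgeR adjusted p = 0.0573). The summed CPM of the 5 microglia genes did not fall with it. Its median was 177 in sham (152 to 285) and 236 in SAH 1d (158 to 247). *S100a9* of neutrophils, called at 3.98, was 30.5 CPM in SAH 1d-3 and 0.752 to 4.23 CPM in the other SAH 1d libraries, and without SAH 1d-3 it was 2.01 (edgeR adjusted p = 0.0576). *Kl* of choroid plexus, called at 3.35, was 18.2 and 21.9 CPM in SAH 1d-4 and SAH 1d-6 and 0.419 to 2.59 CPM in the others, and its call was lost without either of them or without sham-3, sham-4, sham-5 or sham-6. *Prkcd* of the thalamus list rose by 1.08, or by 0.77 without SAH 1d-3. It was 72.4 CPM in SAH 1d-3, 22.9 to 38.3 CPM in the other SAH 1d libraries and 14.2 to 21.7 CPM in sham. Its highest value of all libraries was 112 CPM in SAH 7d-5, where microglia genes summed to 1746 CPM. Whether *Prkcd* stands for thalamic tissue here was not tested. No gene of the oligodendrocyte (5 tested), endothelial (4), red cell (5) or hypothalamus (3) lists was called. Summed hypothalamic genes were at most 2.90, 7.76 and 7.74 CPM in the 3 groups. The part of these cell types in the peptide levels was not tested.

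**Figure D5:**
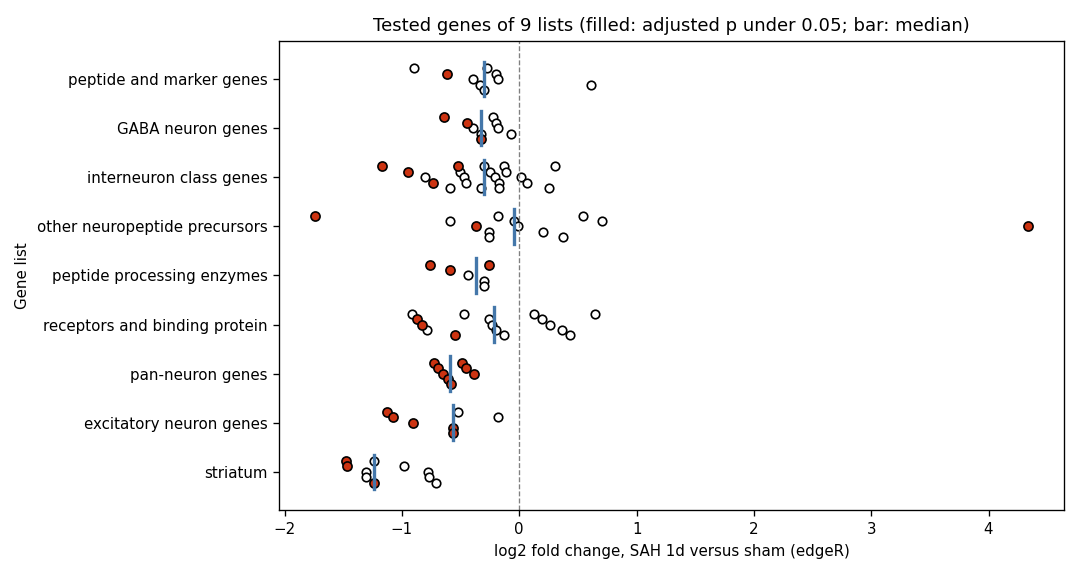
Log2 fold change in SAH 1d versus sham (x axis) of each tested gene in 9 lists (y axis), filled where the edgeR adjusted p is under 0.05, with a bar at each list's median. The 9 peptide and marker genes have 1 filled point and a median of -0.30, the pan-neuron genes 8 filled points and a median of -0.59.

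The second question was what differed from sham at 7 days. In SAH 7d versus sham none of the 9 genes was called by edgeR, and none of all 18444 genes was (0%). At an unadjusted p under 0.05 there were 2842 of all genes and 0 of the 9. DESeq2 called 459 of all genes, and limma voom 2. All 9 fitted values lay below 0, with a median of -0.32. Without SAH 7d-5 the median was -0.11, and 0 of the 9 were called. In that fit *Sst* was at -0.11, *Cck* at -0.11, *Pdyn* at -0.17, *Pvalb* at -0.070, *Vip* at -0.039, *Tac3* at 0.0099, *Penk* at -0.44, *Npy* at -0.60 and *Crh* at -0.27. *Sst* shows how far a single library carried these values. It was 20.6 CPM in SAH 7d-5 and 87.3 to 103.4 CPM in the other 5 libraries, against 68.8 to 130.6 CPM in sham, so the 5 libraries lay within the sham range. Its log2 fold change was -0.32 (SE 0.31, interval -0.98 to 0.34, edgeR adjusted p = 0.57). *Cck* was 84.4 CPM in SAH 7d-5 and 215 to 261 CPM in the others. *Pdyn*, the gene that fell at 1 day, had a median of 44.6 CPM, between 36.4 CPM in SAH 1d and 54.3 CPM in sham, and a log2 fold change from sham of -0.35 (SE 0.31, interval -1.02 to 0.31, edgeR adjusted p = 0.54). *Penk* was at -0.67 (interval -1.76 to 0.43, adjusted p = 0.49), *Pvalb* at -0.26 (interval -0.94 to 0.43, adjusted p = 0.66), *Vip* at -0.22 (interval -0.84 to 0.40, adjusted p = 0.68) and *Tac3* at -0.17 (interval -0.71 to 0.38, adjusted p = 0.72).

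*Npy* split the SAH 7d group. It was 3.53, 3.76 and 4.81 CPM in SAH 7d-4, SAH 7d-1 and SAH 7d-5, below every sham and every SAH 1d library, and 14.3, 14.9 and 20.1 CPM in the other libraries, inside the sham range. SAH 7d-1 and SAH 7d-4 were not low for the other interneuron markers: *Sst* was 103.4 and 93.8 CPM and *Pvalb* 55.1 and 53.2 CPM in them. The log2 fold change of *Npy* from sham was -0.75 (SE 0.43, interval -1.68 to 0.18, edgeR adjusted p = 0.39). *Crh* was 3.30 to 6.39 CPM in SAH 7d with a median of 4.93, against 5.87 in sham, and its log2 fold change was -0.37 (SE 0.20, interval -0.80 to 0.069, edgeR adjusted p = 0.38). In the gene lists, 0 genes were called in SAH 7d versus sham. The GABA neuron list had a median of -0.26, or -0.11 without SAH 7d-5, and the pan-neuron list -0.25 or -0.09.

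The third question was what changed between 1 and 7 days. In SAH 7d versus SAH 1d none of the 9 genes was called, where edgeR called 1.37% of all genes, 0.282% higher and 1.08% lower. Of those called, 20.6% were higher, and 9.49% with limma on log2(FPKM + 1). *Npy* was the only gene of the 9 with an unadjusted p under 0.05, at a log2 fold change of -1.37 (SE 0.63, interval -2.75 to -0.00074, edgeR adjusted p = 0.34). With SAH 7d-5 and SAH 1d-3 both left out it was -0.31 (interval -1.23 to 0.61, adjusted p = 0.68). *Crh* had a fitted log2 fold change of -0.033 with all libraries (interval -1.10 to 1.03, edgeR adjusted p = 0.98). Leaving out both libraries, so that 5 of each group remained, SAH 1d held 1.83 to 3.89 CPM and SAH 7d 4.35 to 6.39 CPM, with no overlap. SAH 1d-3 stood apart partly by its *Crh* value, so this separation and the fits without that library depend on that choice. The share of all genes without overlap in this smaller set was not worked out. With all libraries, 0.938% of all genes were higher and 2.11% lower in SAH 7d with no overlap, and *Crh* was not among them. *Crh* was called higher in SAH 7d without the 2 libraries, at 0.89 (SE 0.23, interval 0.39 to 1.40, edgeR adjusted p = 0.025), in a fit that called 6.13% of all genes higher and 7.49% lower. Limma voom, which gives weights to samples, called it higher with all libraries (0.93, adjusted p = 0.0185), with 6.37% of all genes higher and 8.37% lower. By edgeR without SAH 1d-3 alone it was not called (0.81, adjusted p = 0.148). The other 7 genes had fitted values between -0.099 and 0.26. Their intervals were widest for *Penk*, -0.83 to 1.27, and for *Pvalb*, -0.56 to 0.83, so that a 2-fold increase of *Penk* lies within the interval. In the lists, the microglial gene *Tmem119* was called higher (1.56, edgeR adjusted p = 0.012), and no gene of the neuronal or peptide lists was called. Without both libraries, 4 of 6 processing enzymes, 4 of 8 pan-neuron genes, 3 of 21 interneuron class genes, 3 of 16 receptors and 1 of 9 GABA neuron genes were called higher in SAH 7d, and none of these lists had a gene called lower.

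Over the 18 libraries the 9 genes did not move as a block. On log2 CPM, *Penk* and *Pdyn* had a Pearson correlation of 0.87, which was 0.80 over the 16 libraries other than the pair that stood apart. *Sst* and *Tac3* stood at 0.86, but at 0.30 without these libraries. *Cck* kept 0.73 with *Sst* and 0.69 with *Pvalb* over the 16 libraries. The highest correlation of *Npy* with another gene of the 9 was 0.48, with *Crh*, over 18 libraries, and this was 0.12 over the 16. These are descriptions over libraries that differ in tissue makeup.

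For each gene, the genes most like it were ranked by Pearson correlation of log2 CPM over the 18 libraries. Of the 27 leading genes, 8 were also among the leading 3 by Spearman correlation and 4 over the 16 libraries, so that most of these names depended on the measure and on the libraries that stood apart. *Penk* was most like the striatal genes *Drd1* (0.973), *Isl1* (0.960) and *Adora2a* (0.957), and over 16 libraries these correlations were 0.958, 0.937 and 0.942. *Pdyn* was most like *Oprk1* (0.929), *Car12* (0.914) and *Synpr* (0.912). *Crh* was most like *Pam* (0.915), the enzyme that amidates peptide ends, then *Nrn1* (0.875) and *Amd1* (0.871). *Pvalb* was most like *Cplx1* (0.955), and *Car7* (0.937) was next. *Cck* was most like *Rgs4* (0.952), *Pfkp* and *Actr1b*, and *Sst* most like *Arfip2* (0.965), *Basp1* and *Eef1a2*. *Tac3* was most like *Nova2* (0.923), *Fez1* and *Gabbr1*. The leading correlations of *Vip* (*Lysmd1* 0.849, *Sub1*, *Lysmd2*) and *Npy* (*Spem1* 0.809, *Hsf2*, *Ppp1r12a*) were lower. Over 16 libraries the correlation of *Vip* with *Lysmd1* was 0.629 and that of *Npy* with *Spem1* 0.623.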

How the data were processed

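RNA-seq was measured in cerebral cortex of sham, SAH 1d and SAH 7d rats. The authors aligned clean reads to the rat genome build Rnor_6.0 and deposited whole-number counts per gene, not normalized, and FPKM values (fragments per kilobase of transcript, scaled to mapped reads). The submitters' processing notes name fastp, HISAT2 and DESeq2 1.16.1 and the mouse build mm9, whereas the gene identifiers are of the rat. The counting program is not given in the sources used here. Columns were matched to libraries by the deposited descriptions.

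Counts were tested with edgeR 4.0.16 in R 4.3.3: filterByExpr on 18 libraries, TMM, and the two-sided quasi-likelihood F test on the 12 libraries of each comparison, adjusted by Benjamini-Hochberg over 18444 genes. On simulated data it recovered, for SAH 1d versus sham, 95% of genes changed 4-fold and 75% changed 2-fold, with 6 false calls. For SAH 7d versus sham it recovered 94% and 67% with 6 false calls, and for SAH 7d versus SAH 1d 87% and 58% with 9. The simulated counts were drawn independently for each gene, with few changed genes and no library that stood apart. These rates therefore check the code and do not carry over to the real libraries. CPM are TMM-normalized, and log2 CPM use a prior count of 2. Alternatives used DESeq2 1.42.0 and limma 3.58.1. FPKM were tested on log2(FPKM + 1). Library totals were 27270026 to 38271014 counts, and errors are from the spread between rats.

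The genes and the 19 lists around them were chosen with earlier results of these data known. Named genes are all 10, *Gad1*, *Gad2*, *Slc32a1*, *Drd1*, *Drd2* and *Adora2a*, and up to 3 genes per list and comparison with the smallest p among those called. Other genes named were chosen after their values were seen. Some genes that this rule picks are not reported here. Python 3.11.15, pandas 2.3.3 and matplotlib 3.10.9 were used for tables and figures.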

Additional observations from a re-analysis of the deposited data

Results flagged for a closer look

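Each gene was checked in each group for a library far from the other 5, by the gap to its nearest neighbour as a share of the group's range (Dixon's ratio above its 95% critical value). Of 27 groups 6 held such a library. Chance flags about 1 in 20 groups of independent, normally distributed values. The checks here share the same libraries, so their share of flags cannot be set against that rate. SAH 1d-3 stood out as high for *Npy*, at 87.9 CPM, and for *Crh*, at 15.7 CPM, and as low for *Tac3*, at 5.38 CPM. SAH 7d-5 stood out as low for *Sst*, at 20.6 CPM, and for *Cck*, at 84.4 CPM. The sham-3 library stood out as high for *Crh*, at 9.89 CPM. No explanation was tested for these values.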

How the results depend on the processing

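In SAH 1d versus sham, 1 gene of the 9 was called, and 0 with all 18 libraries in one fit, with limma on log2(FPKM + 1) or log2(FPKM + 0.1), or with the striatum covariate. It was 2 (*Cck* and *Crh*) with limma voom, and 0 to 1 over fits that left out 1 library. All genes called were 4684, 2462 with all 18 libraries in one fit and 1829 with the striatum covariate. In SAH 7d versus sham, 0 of all genes were called, 459 by DESeq2, 9 with all 18 libraries in one fit, 2 by voom and 0 to 3 with 1 library left out. In SAH 7d versus SAH 1d, 252 of all genes were called, 1012 by DESeq2, 779 with all 18 libraries, 429 and 411 by limma on log2(FPKM + 0.1) and log2(FPKM + 1), 2718 by voom, 102 to 1545 with 1 library left out (1545 without SAH 7d-5) and 2512 without both SAH 1d-3 and SAH 7d-5. Of the 9 genes, 1 (*Crh*) was called in the last fit and by voom. The cause of these differences was not tested.

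Several fitted log2 fold changes changed sign, among which *Crh* in SAH 7d versus SAH 1d was called in its new direction by voom and without both libraries. In SAH 1d versus sham, *Npy* became -0.31 by voom and -0.24 with the striatum covariate, and ran from -0.31 to 0.79 with 1 library left out, and *Penk* became 0.21 with the covariate. In SAH 7d versus sham the covariate gave 0.23 for *Penk*, 0.0072 for *Pdyn* and 0.084 for *Tac3*. *Tac3* was 0.024 by voom and ran from -0.25 to 0.0099 with 1 library left out. In SAH 7d versus SAH 1d, without both libraries, *Sst* became 0.076, *Vip* 0.15, *Cck* 0.22 and *Crh* 0.89, and by voom 0.094, 0.090, 0.27 and 0.93. The covariate gave -0.028 for *Pvalb*, 0.29 for *Crh*, -0.10 for *Penk* and -0.0076 for *Tac3*. Limma on log2(FPKM + 0.1) and log2(FPKM + 1) gave 0.35 and 0.23 for *Crh* and -0.034 and -0.021 for *Tac3*. With 1 library left out, *Sst* ran from -0.13 to 0.14, *Vip* from -0.18 to 0.15, *Cck* from -0.19 to 0.064, *Pvalb* from -0.00084 to 0.31, *Crh* from -0.20 to 0.81 and *Penk* from -0.076 to 0.46.

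Equal replicate numbers do not pair the libraries. Deviations of same-numbered libraries correlated above 0.1 in 0 of 6 pairs of sham and SAH 1d, 0 of 6 of sham and SAH 7d, and 1 of 6 of SAH 1d and SAH 7d. With the replicate block, 3979, 0 and 29 genes were called, and *Crh* in SAH 7d versus SAH 1d was 0.43. Total counts of 27270026 or more gave each tested gene of the 9 at least 51 counts in every library.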

Other observations

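SAH 1d-3 held more of several other neuropeptide and secretory genes than any other library, a pattern noticed in these data and described without a test, since it rests on 1 rat. Neutrophil, thalamic, red cell and hypothalamic genes were also higher in SAH 1d-3 than in the other SAH 1d libraries, and their part in the pattern was not tested. Of 13 other neuropeptide precursors 5 had their highest value of all 18 libraries there. *Adcyap1*, the precursor of PACAP, was 153 CPM in SAH 1d-3 and 10.6 to 24.0 CPM in the other SAH 1d libraries. The granin *Scg2* was 1256 CPM against 119 to 207, and *Vgf*, a secreted protein known to follow neuronal activity, was 638 CPM against 53.9 to 105. *Pnoc*, the precursor of nociceptin, was 29.5 CPM against 4.04 to 8.45, and *Trh* 140 CPM against 1.25 to 2.97. *Crhbp* was 98.1 CPM against 9.96 to 15.8. The genes *Bdnf*, at 267 CPM against 10.1 to 60.5, and *Nptx2*, at 1454 CPM against 48.5 to 278, were also highest in it. Not all peptides followed: *Grp* and *Nmb* were at their lowest of all libraries in SAH 1d-3, at 4.59 and 0.10 CPM.

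The immediate early genes were highest in another rat, SAH 1d-5. It had the highest values of *Fos* (212 CPM), *Fosb* (148 CPM), *Egr1* (399 CPM) and *Npas4* (118 CPM) of all libraries, where SAH 1d-3 had 132, 82.8, 332 and 28.3 CPM. In SAH 1d-5, *Npy* was 16.3 CPM, *Crh* 3.88 CPM and *Trh* 1.68 CPM, close to the SAH 1d libraries other than SAH 1d-3. *Cck* was 292 CPM in SAH 1d-5, against 343 CPM in SAH 1d-3 and 157 to 214 CPM in the other SAH 1d libraries. *Sst*, at 104 CPM, and the summed peptide and marker genes, at 697 CPM, were the highest of the SAH 1d group in SAH 1d-5. *Vip*, *Pvalb*, *Penk*, *Pdyn* and *Tac3* lay within the range of the other SAH 1d libraries. The genes named here were chosen after their values were seen.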
